A study of Mus musculus with 13 samples.

Results

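Neutrophils are short-lived white cells of the blood that are made in bone marrow, and their proteins are packed into granules in a fixed order as the cell matures. The 9 genes described here follow that order: Mpo and Elane of the primary granules of early precursors, Camp, Ngp, Ltf and Lcn2 of the specific granules of later precursors, and S100a8, S100a9 and Retnlg, which stay abundant in mature cells. They were followed in all 13 libraries of whole mouse quadriceps, 9 of the 24015 genes in the table of transcript levels. The genes were chosen from measured values of these same libraries, in which neutrophil transcripts were uneven, so their levels and differences are given as a description and without a test.

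All libraries were of C57BL/6 mice, a common inbred strain, and every mouse had an injection into the peritoneum each day for 4 weeks. Young vehicle libraries of batch 1 (replicates 1, 3, 4 and 5) were of mice aged 3 months, and aged vehicle libraries of batch 1 (replicates 2, 3 and 4) of mice labelled as older than 24 months. Batch 2 held aged vehicle libraries (replicates 2, 3 and 8) and aged libraries given SW033291 at 5 mg/kg (replicates 1, 4 and 6), with the same age label. SW033291 inhibits 15-PGDH, the enzyme that degrades prostaglandin E2, and the vehicle was ethanol, Cremophor EL and dextrose in water. The labels do not say whether each library came from its own animal, so differences between replicates may be technical in part, and the batch of a library is given without saying what it was a batch of. In bulk muscle, fewer cells of a type and less RNA per cell cannot be told apart.

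Levels were deposited as TPM, a length-corrected measure that scales each library to the same total, so that genes can be compared with one another. The number of reads behind a value is unknown. A total of 13424 to 16059 genes stood above 0 per library, 14201 to 16059 in batch 1 and 13424 to 14096 in batch 2, and a level listed at 0 does not show that a transcript was absent. Gene names in the deposited table were not on their own rows and were put back by their sorted order, as the methods describe, and each value rests on that order. The tissue label was checked with 12 genes of the muscle fibre, among them Acta1, Ckm and Myh4. All 12 were measured, and their summed level was 252449 to 271792 TPM in young libraries, 223809 to 244045 in aged vehicle batch 1, 230609 to 235742 in aged vehicle batch 2 and 226079 to 253382 TPM with SW033291.

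The regulatory sequence ahead of the genes was read from RefSeq (GRCm38.p6), in which all 9 genes matched an entry. Whether shared regulation has a part in their levels was not tested. S100a8 and S100a9 are direct neighbours on chromosome 3, with 0 protein-coding genes between them. Camp, Ngp and Ltf lie on the same stretch of chromosome 9, with 8 protein-coding genes between Camp and Ngp and 20 between Ngp and Ltf. The 250 bases before each start were searched on both strands for 4 motifs. The letters TTGCNNAA stood for C/EBP, the family of Cebpe, which drives specific granule genes. The letters GAGGAA stood for PU.1, the myeloid factor that Spi1 encodes. RUNX, a family of blood cell factors, was searched as TGTGGT. The GATA family of red cell and eosinophil factors was searched as AGATAA. The sequences below show the genes with a C/EBP match that lie in the specific granule or S100 groups, and the primary granule gene Elane for contrast, with every match in capitals.
S100a9, chr3:90695722-90695971, minus strand: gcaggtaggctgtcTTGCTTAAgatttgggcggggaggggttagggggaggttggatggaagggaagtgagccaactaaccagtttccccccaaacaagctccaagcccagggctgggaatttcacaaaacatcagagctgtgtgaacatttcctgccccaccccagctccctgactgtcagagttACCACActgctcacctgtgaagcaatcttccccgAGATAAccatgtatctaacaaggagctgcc
Ngp, chr9:110419558-110419807, plus strand: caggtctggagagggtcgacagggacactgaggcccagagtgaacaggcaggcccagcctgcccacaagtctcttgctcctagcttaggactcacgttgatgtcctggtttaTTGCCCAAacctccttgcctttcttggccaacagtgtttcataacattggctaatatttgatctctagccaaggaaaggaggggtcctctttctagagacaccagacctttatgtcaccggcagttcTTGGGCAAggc
Ltf, chr9:111019042-111019291, plus strand: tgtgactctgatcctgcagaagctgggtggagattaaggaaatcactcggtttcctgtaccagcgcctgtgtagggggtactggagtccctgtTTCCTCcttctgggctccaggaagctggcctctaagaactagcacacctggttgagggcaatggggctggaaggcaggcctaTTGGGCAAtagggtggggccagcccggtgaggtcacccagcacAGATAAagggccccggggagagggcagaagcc
Lcn2, chr2:32387740-32387989, minus strand: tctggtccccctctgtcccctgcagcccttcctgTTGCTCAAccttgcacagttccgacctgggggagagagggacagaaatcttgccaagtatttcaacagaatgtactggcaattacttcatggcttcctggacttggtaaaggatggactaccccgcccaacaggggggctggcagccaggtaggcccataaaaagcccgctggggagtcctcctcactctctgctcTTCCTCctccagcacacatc
Elane, chr10:79886062-79886311, plus strand: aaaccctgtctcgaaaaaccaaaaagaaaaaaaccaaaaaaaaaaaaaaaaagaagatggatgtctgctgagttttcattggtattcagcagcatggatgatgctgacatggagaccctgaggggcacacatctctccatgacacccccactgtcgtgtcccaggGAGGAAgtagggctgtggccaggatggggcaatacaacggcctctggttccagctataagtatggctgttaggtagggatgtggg
The C/EBP letters were found ahead of 5 of the 9 genes (S100a9, Ngp, Ltf, Lcn2 and Retnlg), and 9.57% of 32817 promoters of the same length held them. Ngp had a pair of matches, beginning 138 and 11 bases before the start, and Ltf had 1 that began 75 bases before it. The PU.1 letters were found ahead of 5 genes (S100a8, Ltf, Lcn2, Mpo and Elane), against 23.3% of all promoters, and in Elane they began 85 bases before the start. The primary granule genes thus held PU.1 letters and no C/EBP letters in this window. RUNX letters were found in 1 gene (S100a9, 14.04% of promoters) and GATA letters in 2 (S100a9 and Ltf, 9.99% of promoters), none of the matches overlapped another, and Camp held none of the 4 motifs. A match is a description of letters, not evidence of binding.

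The same 3 libraries were the highest for all 9 genes, and in the same order. They were aged vehicle batch 1 replicate 4, then aged vehicle batch 2 replicate 2, then aged SW033291 batch 2 replicate 4. The 9 genes summed to 1761 TPM in the first, which is 0.176% of all transcripts, to 778 TPM in the second and to 232 TPM in the third. In the other 10 libraries the sum ran from 0.87 to 22.2 TPM. Each group of aged muscle thus held 1 library far above its other 2, and no young library was of this kind.

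**Figure D1:**
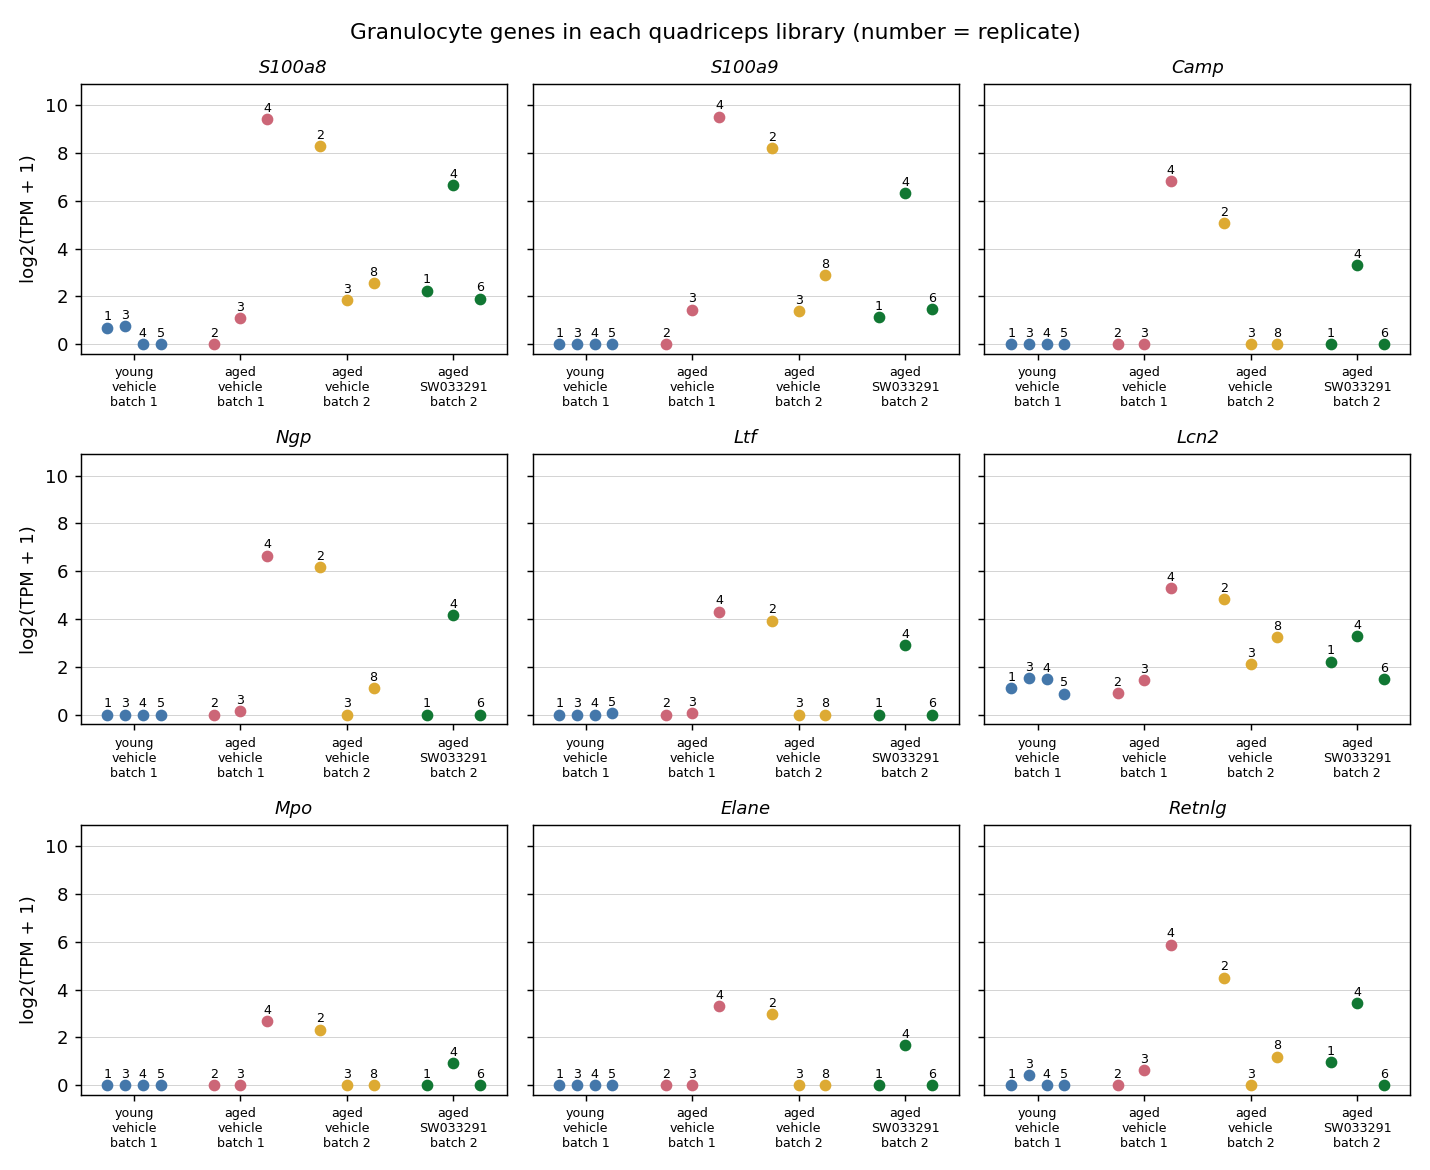
Levels of the 9 granulocyte genes as log2(TPM + 1), with 1 point per library, the replicate number beside it and the 4 groups along the horizontal axis. In every panel aged vehicle batch 1 replicate 4 is highest, followed by aged vehicle batch 2 replicate 2 and aged SW033291 replicate 4, while most other points lie at or near 0, those of Lcn2 excepted.

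S100a8 and S100a9 encode the subunits of calprotectin, a calcium- and zinc-binding complex that makes up much of the cytosol of a neutrophil. S100a9 was listed at 0 in all 4 young libraries. It stood at 0, 1.72 and 736 TPM in aged vehicle batch 1 replicates 2, 3 and 4, at 290, 1.63 and 6.39 TPM in aged vehicle batch 2 replicates 2, 3 and 8, and at 1.19, 78.2 and 1.76 TPM with SW033291 (replicates 1, 4 and 6). In each aged group 1 library was thus at least an order of magnitude above the others, and the aged groups overlapped one another. The young libraries overlapped those of aged vehicle batch 1, but every library of batch 2 lay above them. Young libraries are in batch 1 only, so age and batch cannot be told apart there. S100a8 stood at 0.62, 0.68, 0 and 0 TPM in young replicates 1, 3, 4 and 5 and at 0, 1.11 and 684 TPM in aged vehicle batch 1 replicates 2, 3 and 4. In batch 2 it was at 310, 2.60 and 4.92 TPM in vehicle replicates 2, 3 and 8 and at 3.73, 99.97 and 2.75 TPM with SW033291 (replicates 1, 4 and 6). For S100a8 as well, every library of batch 2 lay above the young ones.

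The specific granule genes followed at lower levels. Camp encodes the precursor of the antimicrobial peptide CRAMP, the mouse cathelicidin. It was at 112 TPM in aged vehicle batch 1 replicate 4, at 32.3 TPM in aged vehicle batch 2 replicate 2, at 8.82 TPM in the SW033291 library (replicate 4), and it was listed at 0 in the other 10 libraries. Ngp encodes neutrophilic granule protein, a relative of the cathelicidins. It was at 99.7, 70.9 and 16.9 TPM in the same 3 libraries, at 1.17 TPM in aged vehicle batch 2 replicate 8, at 0.12 TPM in aged vehicle batch 1 replicate 3 and at 0 in the other 8. Ltf, which encodes the iron-binding protein lactoferrin, was at 18.9, 14.2 and 6.51 TPM in the 3 libraries and no higher than 0.05 TPM elsewhere. Camp and Ltf therefore separated the 3 libraries from the rest without intermediate values.

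Lcn2 differed from the other members in that no library was listed at 0. It encodes lipocalin 2, which binds bacterial iron carriers and is made by several other cell types as well. Young replicates 1, 3, 4 and 5 stood at 1.18, 1.91, 1.78 and 0.84 TPM, and aged vehicle batch 1 replicates 2, 3 and 4 at 0.87, 1.74 and 37.9 TPM. In batch 2 the vehicle replicates 2, 3 and 8 stood at 27.8, 3.33 and 8.40 TPM and SW033291 replicates 1, 4 and 6 at 3.66, 8.71 and 1.82 TPM. Vehicle replicate 8 and SW033291 replicate 4 of batch 2 were thus nearly level for Lcn2 (8.40 and 8.71 TPM), although S100a9 was at 6.39 and 78.2 TPM in them.

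The primary granule genes mark the earliest of the stages. Mpo encodes myeloperoxidase, which makes hypochlorous acid, and was at 5.46, 4.01 and 0.91 TPM in the 3 libraries in the order above. Elane encodes neutrophil elastase, a serine protease, and was at 8.99, 6.82 and 2.16 TPM. Both were listed at 0 in the other 10 libraries. Mpo and Elane, of early precursors, were therefore detected in the same 3 libraries in which genes of mature cells were highest. Retnlg, a secreted resistin-like protein of mature neutrophils, was at 58.0, 21.6 and 9.88 TPM in the 3 libraries. Elsewhere it was at 0.33 TPM in young replicate 3, 0.55 TPM in aged vehicle batch 1 replicate 3, 1.29 TPM in aged vehicle batch 2 replicate 8, 0.95 TPM in SW033291 replicate 1 and at 0 in the remaining 6.

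Relative to S100a9, the levels of the other members were not the same in the 3 libraries. Such ratios of transcripts do not measure the share of each stage of cell. S100a8 stood at 93.0%, 107% and 128% of S100a9 in aged vehicle batch 1 replicate 4, aged vehicle batch 2 replicate 2 and SW033291 replicate 4. Elane was at 1.22%, 2.35% and 2.76% of S100a9, Mpo at 0.742%, 1.38% and 1.16%, and Ltf at 2.56%, 4.91% and 8.32%. Relative to S100a9, Ngp (13.5%, 24.4% and 21.6%) and Lcn2 (5.15%, 9.59% and 11.1%) were likewise lowest in the library with most S100a9, whereas Camp was highest there (15.3%, 11.1% and 11.3%). Retnlg was at 7.89%, 7.46% and 12.6%, highest in the SW033291 library. Between aged vehicle batch 1 replicate 4 and aged vehicle batch 2 replicate 2 the ratio of levels was 2.53 for S100a9, 2.68 for Retnlg and 3.48 for Camp, but 1.32 for Elane and 1.36 for Mpo. Each of these values is of a single library, so none of these differences has a replicate check.

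**Figure D2:**
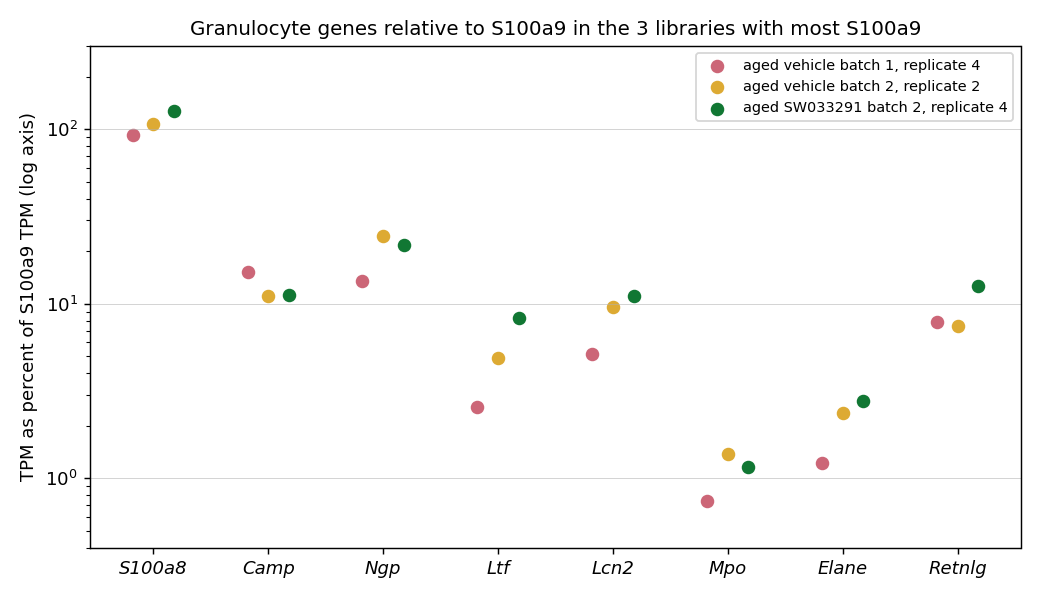
TPM of 8 granulocyte genes as a percentage of S100a9 TPM in the same library, on a log axis, for the 3 libraries with most S100a9, with 1 point per library and no error, since each is a single library. S100a8 lies near 100% in all 3, Ltf spans 2.56% to 8.32%, and Mpo lies lowest, between 0.742% and 1.38%.

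Age was compared between the vehicle groups of batch 1. For the 9 genes the means of the aged group were set largely by replicate 4. On the log2(TPM + 1) scale, which understates changes near or below 1 TPM, the difference of means was 3.66 for S100a9 (SE 2.02), 3.14 for S100a8 (SE 1.99), 2.27 for Camp (SE 1.54) and 2.27 for Ngp (SE 1.63), aged minus young. Retnlg differed by 2.07 (SE 1.28), Ltf by 1.45 (SE 1.11), Lcn2 by 1.29 (SE 0.86) and Elane by 1.11 (SE 0.82). Each difference was less than 2 times its standard error, and in all 9 genes the aged and young libraries overlapped. Only 8 of the 9 genes reached the filter of 1 TPM in at least 3 libraries (Mpo did not), and Camp, Ngp, Ltf, Elane and Retnlg did so only through the 3 high libraries, without which S100a8, S100a9 and Lcn2 remained. Without aged vehicle batch 1 replicate 4 the difference fell to 0.72 for S100a9, 0.18 for S100a8 and -0.08 for Lcn2.

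Across all 11876 genes tested, limma called 54 genes with age (44 higher and 10 lower, or 36 and 20 after median-of-ratios scaling), which is 0.455%, and 11.6% of genes had groups that did not overlap. Of the 8 granulocyte genes tested, 0 were called and 0 had an unadjusted p under 0.05, and in 0 of 9 did the groups not overlap. Since the genes were chosen on these libraries, nothing is read from those counts. The median log2 difference was 2.17 over the 8 genes and 0.06 over all genes tested. That gap too was largely set in advance by the choice of the genes, and nothing is read from it.

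The authors' deposited table for age gives these genes another standing. It lists 6 of the 9 among its 813 genes: S100a8, S100a9, Ngp, Ltf, Lcn2 and Retnlg. All 813 have a DESeq2 adjusted p of at most 0.0999, so the table holds only genes below such a limit. Of the 813, 514 are under 0.05 and 516 are higher with age. The 9 genes were chosen on libraries of this series, so nothing is read from their number or places there. By log2 fold change, S100a9 (10.28, SE 2.48), Ngp (9.19, SE 2.72), S100a8 (8.86, SE 2.25) and Ltf (8.38, SE 2.66) took the places 1, 2, 3 and 4 of the 813 in the authors' deposited table. Their DESeq2 adjusted p there was 0.0027, 0.026, 0.0052 and 0.046. Retnlg (6.25, adjusted p = 0.083) and Lcn2 (2.71, adjusted p = 0.053) stood at places 7 and 68 of the authors' deposited table, and Camp, Mpo and Elane are not among the genes it lists. The sources used here do not state which libraries entered it. An alternative added after the data were seen set all 6 aged vehicle libraries against the young ones. The limma difference of S100a9 was then 3.91 (SE 1.62), and again 0 of 8 members were called. In that fit 3 members had an unadjusted limma p under 0.05, against 0 in the main fit, counts from which nothing is read. Young libraries are in batch 1 only, so the pooled fit mixes age with batch.

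The comparison of SW033291 with vehicle in aged muscle of batch 2 asks what inhibition of 15-PGDH changes. Each of the 2 groups held 1 high library, so the groups overlapped in all 9 genes. The difference of means on the log2(TPM + 1) scale, SW033291 minus vehicle, was -1.19 for S100a9 (SE 2.16), -0.63 for S100a8 (SE 2.13), -1.04 for Ngp (SE 1.74) and -0.59 for Camp (SE 1.65). It was -1.07 for Lcn2 (SE 0.92), -0.34 for Ltf (SE 1.18), -0.44 for Elane (SE 0.87) and -0.43 for Retnlg (SE 1.37). Over the 8 genes the median was -0.61, and over all genes tested it was -0.13, a shift that median-of-ratios scaling brought to -0.0040. Without vehicle replicate 2 the sign turned for S100a9 (0.83), S100a8 (1.40), Ngp (0.83) and Retnlg (0.87). It also turned for S100a8 and Ltf without SW033291 replicate 1 (0.05 and 0.14) or replicate 6 (0.22 and 0.14), and for Retnlg without replicate 6 (0.30). Without the 3 high libraries, S100a9 differed by -0.84 (SE 0.50), Lcn2 by -0.82 (SE 0.40) and S100a8 by -0.13 (SE 0.42). Only vehicle replicates 3 and 8 and SW033291 replicates 1 and 6 then remained, and the limma adjusted p of Lcn2 was 0.43.

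Over all genes, limma called 0 of 11876 with SW033291, or 0%, while 1221 had an unadjusted p under 0.05, and 17.1% had groups that did not overlap. Of the 8 granulocyte genes tested 0 were called and 0 had an unadjusted p under 0.05, and the groups overlapped in all 9, counts from which nothing is read. The authors' deposited table of SW033291 lists all 9 genes with negative log2 fold changes, from -0.47 for Retnlg (SE 2.56) to -1.97 for Camp (SE 3.76), and -1.52 for S100a9 (SE 2.22). For S100a8, S100a9 and Ngp the authors' deposited table gives no p-value. A p-value is missing there for 9 of the 16675 genes with a mean level above 0, so these 3 genes are among 9. The lowest p of the other 6 in the authors' deposited table was 0.074, unadjusted, for Lcn2 (-1.20, SE 0.68).

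**Figure D3:**
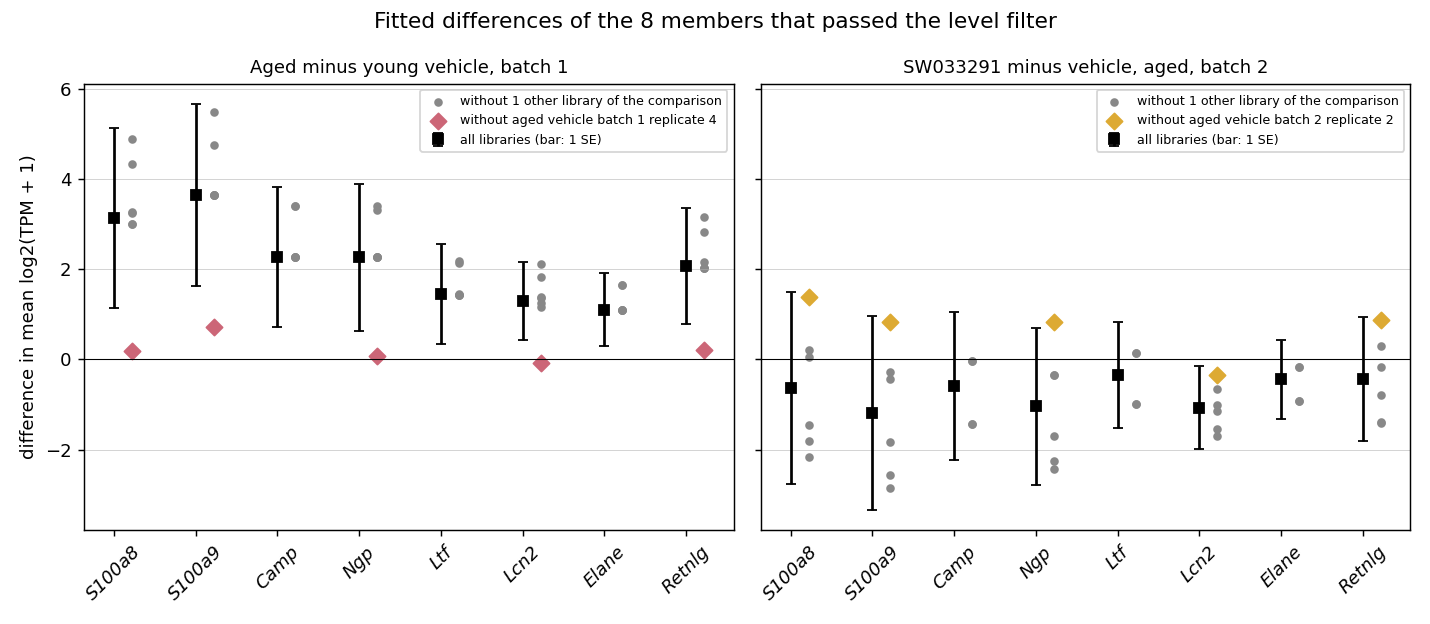
Differences in mean log2(TPM + 1) for the 8 granulocyte genes that passed the level filter, aged minus young vehicle in batch 1 (left) and SW033291 minus vehicle in batch 2 (right), with all libraries (squares, bars of 1 SE), without each other library in turn (grey points) and without the named high library (diamonds). On the left the diamonds lie near 0 (0.72 for S100a9), and on the right those of S100a9, S100a8, Ngp and Retnlg lie above 0, while genes with no diamond did not pass the filter once that library was left out.

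Other neutrophil genes, which the choice of the 9 did not name, were read from a list of 30 genes of mature cells, written with earlier results of these data known. Of 28 measured, 26 stood above 0 in some library, and 22 of these were highest in aged vehicle batch 1 replicate 4. That library was highest for 19.8% of all genes tested, but only 9 genes of the list passed the filter. It also had the most genes above 0 (16059), and the share over genes below the filter was not computed. The counts of highest genes in the lists that follow have the same limit. The list summed to 115, 89.4 and 58.4 TPM in the 3 libraries and to 28.3 to 99.7 TPM in the other 10, so the third lay among the rest. Lrg1, a secreted glycoprotein that other cells also make, was at its lowest of the 13 libraries in aged vehicle batch 1 replicate 4 (9.97 TPM), and Il1r2, the decoy receptor of interleukin 1, was at 1.16 TPM there and highest in young replicate 3 (6.73 TPM). Csf3r, the receptor of the growth factor G-CSF, was at 2.41, 0.98 and 0.16 TPM in the 3 libraries, and its level in the last lay among those of the other 10 (0 to 0.69 TPM). Cxcr2, the chemokine receptor of neutrophils, was at 1.85, 1.02 and 0.19 TPM, the last again among the other 10 (0 to 0.22 TPM), and Mmp8, the neutrophil collagenase, at 5.03, 2.57 and 1.66 TPM. Of the stefin family, Stfa2 and Stfa3 were listed at 0 in all 13 libraries, and Stfa1, Stfa2l1, BC100530 and Gm5483 were at 0.95 to 5.82 TPM in aged vehicle batch 1 replicate 4 and listed at 0 in the other 12 libraries. These genes are near-identical copies that can share reads, so their single values are uncertain. With age 0 of the 9 tested genes of this list were called in either direction, with a median log2 difference of 0.47. With SW033291 0 of 9 were called, with a median of -0.32.

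Of 17 measured genes of granulocyte precursors, 14 were highest in aged vehicle batch 1 replicate 4. The list summed to 1046, 863 and 684 TPM in the 3 libraries and to 668 to 919 TPM in the other 10, much of it Tuba8, a tubulin, which was highest in young libraries (514 to 583 TPM). Ctsg, which encodes cathepsin G, was at 5.25, 2.64 and 0.65 TPM in the 3 libraries, Ms4a3, a membrane protein of granulocyte and monocyte precursors, at 6.37, 1.74 and 0.64 TPM, and Fcnb, which encodes ficolin B, at 3.21, 1.64 and 1.82 TPM. All 3 genes were listed at 0 in the other 10 libraries. Prtn3, which encodes proteinase 3, was at 9.20, 4.57 and 2.70 TPM, and at 1.01 TPM or less elsewhere. Cebpe, the transcription factor of specific granule genes, was at 1.51, 0.69 and 1.01 TPM in the 3 libraries and at 0 in the other 10. Not all members of the list were detected in the third library: Trem3 was at 2.55, 1.67 and 0 TPM, Ltb4r1, a leukotriene receptor, at 1.73, 1.80 and 0 TPM, and Gfi1 (0.25 TPM) and Prss57 (0.65 TPM) were listed above 0 only in the first of the 3. With age 1 of the 8 tested genes was called, Serpinb1a, an inhibitor of neutrophil proteases, higher by 1.48 (SE 0.29, limma adjusted p = 0.038). That call ended in 6 of the 7 fits without 1 library (limma adjusted p of 0.032 to 0.11), holding only without aged vehicle batch 1 replicate 3. Serpinb1a did not follow the 9 genes: it was at 12.2 TPM in aged vehicle batch 1 replicate 4, 13.8 TPM in aged vehicle batch 2 replicate 2 and 15.9 TPM in aged vehicle batch 2 replicate 3, against 1.47 to 2.06 TPM in young libraries. The median of the list was 0.53 with age and -0.20 with SW033291, where 0 of 8 were called.

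Of 6 genes of the NADPH oxidase, which makes the oxidative burst, 5 were highest in aged vehicle batch 1 replicate 4, among them Cybb at 4.30 TPM. Among signals that recruit or retain neutrophils, Cxcl12, the chemokine that holds them in bone marrow, was at 28.4 to 53.1 TPM over the 13 libraries, Ccl2 at 0 to 5.90 TPM and the adhesion molecule Icam1 at 0.62 to 3.70 TPM. Cxcl1 reached at most 0.94 TPM, Cxcl2 0.26 TPM, Csf3 0.61 TPM and Il1b 0.75 TPM. The list summed to 52.1, 46.7 and 32.9 TPM in the 3 libraries and to 34.2 to 57.2 TPM in the other 10. Of 13 such genes 3 were tested and 0 called in either comparison, with medians of 0.17 with age and -0.18 with SW033291. Of 8 myeloid transcription factors 6 were tested and 0 called in either comparison, with medians of -0.07 and -0.20. For the oxidase 0 of 5 were called, with medians of 0.32 and -0.21.

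Markers of other cells moved with the 9 genes in part. Of 21 measured erythroid genes 17 were highest in aged vehicle batch 1 replicate 4. Their summed level was 4054 TPM there, 2378 TPM in aged vehicle batch 2 replicate 2 and 737 TPM in SW033291 replicate 4, against 418 to 855 TPM in the other 10 libraries. The sum of the third thus lay within the range of the rest, while Hbb-b1, a beta globin, and Alas2, the haem synthesis enzyme of red cell precursors, stood slightly above their own levels in the rest (235 TPM against at most 212, and 2.69 TPM against at most 2.31). Slc4a1, the red cell anion exchanger band 3, was at 5.26 and 4.35 TPM in the first 2 and listed at 0 in the third. By group the erythroid sum was 475 to 838 TPM in young libraries, 447 to 4054 in aged vehicle batch 1, 418 to 2378 in aged vehicle batch 2 and 496 to 855 TPM with SW033291. Hbb-bt and Hbb-b2 had the same value in every library, so the same values enter the erythroid counts and sums under both names. Hba-a1, an alpha globin gene, was listed at 0 in 3 young libraries and was called higher with age (6.56, SE 1.10, limma adjusted p = 0.018), a call that ended without young replicate 1 or young replicate 4 (limma adjusted p up to 0.073). It also ended with the libraries of the comparison only (limma adjusted p = 0.084). Hba-a2, another alpha globin gene, was at 171 to 337 TPM in young libraries. In aged vehicle batch 1 replicates 2, 3 and 4 Hba-a2 was at 79.0, 140 and 754 TPM, below the young libraries in the first 2. Globin copies share reads, so these values are uncertain. The call of Hba-a1 therefore does not show a rise of alpha globin as a whole.

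The 9 genes of megakaryocytes and platelets summed to 57.6, 68.98 and 16.99 TPM in the 3 libraries and to 5.02 to 22.4 TPM in the other 10. Ppbp, the platelet basic protein, was at 20.4, 29.8 and 3.56 TPM, and at 1.90 TPM or less elsewhere. The 10 genes of dividing cells summed to 25.7, 16.2 and 5.51 TPM, against 3.86 to 7.62 TPM elsewhere, and all 10 were highest in aged vehicle batch 1 replicate 4, among them Mki67 at 2.95 TPM and Top2a at 2.32 TPM. SW033291 replicate 4 lay within the range of the rest for the sum, and its single genes went both ways. Mki67 (0.65 TPM), Top2a (0.64 TPM) and Ube2c (2.13 TPM) were above the other 10 libraries (at most 0.08, 0.35 and 1.51 TPM). In SW033291 replicate 4 Ccna2, Ccnb1, Birc5 and Hmmr were listed at 0, and Tpx2 (1.62 TPM) was at its lowest of the 13 libraries. Of these lists 0 genes were called in either comparison. Monocyte and macrophage genes did not follow: 13 genes summed to 85.1, 79.9 and 68.3 TPM in the 3 libraries and to 36.1 to 116 TPM in the other 10. Within that list Ly6c2, of inflammatory monocytes, was at 11.8, 8.77 and 2.78 TPM against 0 to 2.96 TPM elsewhere, and C1qa, of tissue macrophages, at 18.4, 13.6 and 16 TPM against 8.73 to 31.7 TPM elsewhere.

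A bone gene was detected in the same 3 libraries and in no other. Ibsp, which encodes the bone matrix protein bone sialoprotein, was at 2.91, 2.87 and 3.33 TPM in them and listed at 0 in the remaining 10. Among 11 measured genes of bone-forming cells, Bglap, an osteocalcin gene, was at 11.9 TPM in aged vehicle batch 1 replicate 4 and at 0 in the other 12, and Bglap2 was at 7.30 and 4.83 TPM in the first 2 libraries and at 0 in the other 11. These osteocalcin copies can share reads. The list as a whole did not follow: its sum was 25.3 to 54.4 TPM in the 3 libraries and 7.24 to 59.3 TPM in the other 10. In young libraries most of it was Col1a1 (40.2 to 51.0 TPM), which fibroblasts express too. Col1a1 was the only gene of the list called with age, and it was lower (-2.17, SE 0.36, limma adjusted p = 0.016). That call was lost when young replicate 1, young replicate 5 or aged replicate 2 was left out (limma adjusted p up to 0.081). With no filter on low levels the calls of Serpinb1a, Hba-a1 and Col1a1 were all lost (limma adjusted p = 0.10, 0.070 and 0.060). Osteoclast genes summed to 27.5, 17.9 and 7.41 TPM, against 2.39 to 28.4 TPM elsewhere. Markers of T and NK cells summed to 2.98, 2.88 and 2.55 TPM in the 3 libraries, against 0 to 2.35 TPM in the other 10. Part of that sum was Nkg7 (1.56, 1.14 and 0.84 TPM), while Cd3e and Prf1 were listed at 0 in all 3. Only 1 of the 10 genes was highest in aged vehicle batch 1 replicate 4, and 0 passed the filter. Those of B cells and their precursors summed to 58.7, 65.5 and 53.3 TPM against 36.2 to 81.3 TPM. Markers of eosinophils, basophils and mast cells summed to 16.9, 4.16 and 5.29 TPM, against 2.53 to 11.03 TPM. The part that any of these cells has in the levels of the 9 genes was not tested.

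**Figure D4:**
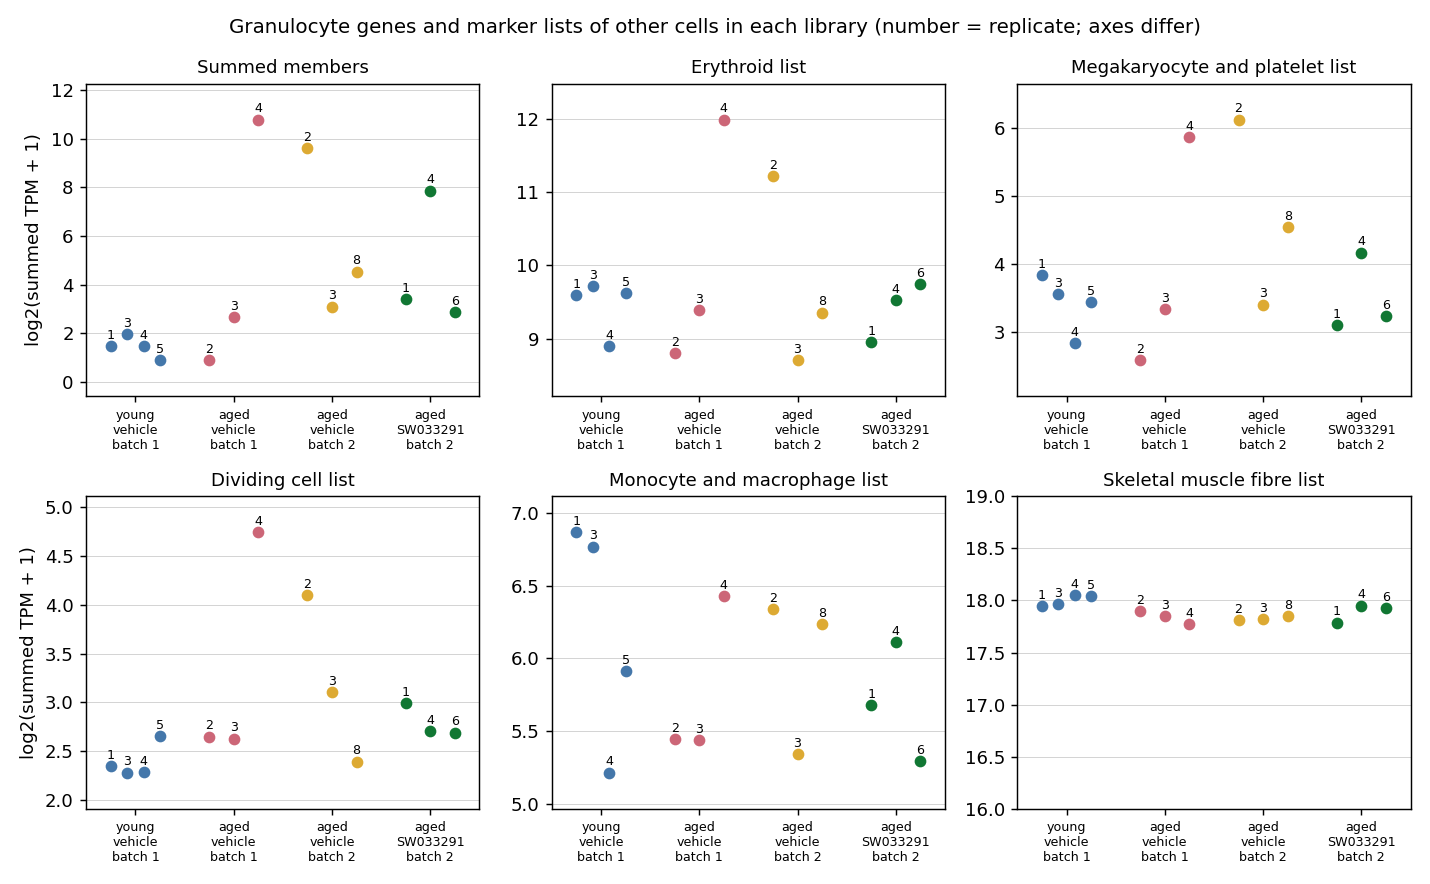
Summed level of the 9 granulocyte genes and of 5 marker lists as log2(summed TPM + 1), with 1 point per library, the replicate number beside it and separate vertical scales that do not start at 0 in most panels. The erythroid sum is highest in the first 2 of the high libraries (4054 and 2378 TPM) and within the range of the rest in SW033291 replicate 4 (737 TPM), while the muscle fibre list lies between 223809 and 271792 TPM in all libraries.

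The genes whose pattern was most like that of the 9 were ranked by Pearson r of log2(TPM + 1) with the mean of the 8 tested members over the 13 libraries. Libraries of a group share their batch label, and the 3 high libraries carry most of each r, so r is given only as a description. Among 11868 genes the 10 highest lay between 0.93 and 0.99, and 18 genes reached 0.90. They were Chil3, a chitinase-like protein of neutrophil precursors and macrophages, Mmp8, Fcnb, Ppbp, Prg2 (eosinophil major basic protein), Ibsp, Ly6c2, Rac2 (a GTPase of blood cells), Hbb-b1 and Alas2. Chil3 was at 29.6, 19.3 and 4.74 TPM in the 3 libraries and no higher than 0.42 TPM elsewhere. Without aged vehicle batch 1 replicate 4, the library highest in the 9 genes, all 10 were still among the first 100 of the ranking over 12 libraries. The other 2 high libraries stayed in that ranking, and its filter on level was still that of all 13. Chil3, Mmp8, Fcnb, Prg2, Ibsp and Rac2 reached 1 TPM only in the 3 high libraries. Their places were thus largely set in advance, and nothing is read from them.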

How the data were processed

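RNA of whole quadriceps was sequenced in 13 libraries, grouped by their labels. The build mm9 and the tools RSEM, STAR, DESeq and DESeq2 are named per the submitters' processing notes (tool versions: not given in the sources used here). TPM per gene and library were deposited by the authors, so depth and counting error are unknown. The authors also deposited 2 tables of comparisons with, per the file headers, a log2 fold change and its SE, a test statistic (a score), an unadjusted p-value and, for age, an adjusted p-value (all 813 at most 0.0999), and a mean normalised count per gene (a signal).

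The order of gene names in the TPM table was not that of its values. After 27 spreadsheet dates were undone, names were sorted in byte order and assigned to the rows. Mean TPM and mean level in the authors' table of SW033291 then had a Spearman correlation of 0.960 across 23988 genes (-0.0175 as deposited), and the log2 differences a Pearson correlation of 0.928 across 6361 genes, against 0.0898 and 0.0869 with names moved by 1 row.

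A linear model (limma 3.58.1, R 4.3.3) of log2(TPM + 1) had 1 coefficient per group over all 13 libraries and a variance trend. It covered the 11876 genes that reached 1 TPM in 3 or more libraries. P-values were adjusted by Benjamini-Hochberg over all these genes, threshold 0.05. The script was tested on simulated data. Batch is part of each group. Genes named were the 9 members, of each marker list the called genes and leading markers, and the 10 genes most like the members. Other genes of the lists were named after their values were seen, and members and lists were chosen with earlier results of these data known. Alternatives were a pseudocount of 0.1, no filter, median-of-ratios scaling, fewer libraries, the aged libraries of batch 2, and a replicate block. Promoters are from RefSeq (GRCm38.p6), not the build of the files.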

Additional observations from a re-analysis of the deposited data

Results flagged for a closer look

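In the group of 4 young libraries, 25 values were checked for a library apart from the rest (the 9 genes, their sum and 15 marker lists), and 3 stood apart. Chance sets apart about 1 in 20 groups of distinct values, a rate that does not apply to Ltf and Retnlg, since a lone value above 0 among values of 0 is always set apart. Retnlg was at 0.33 TPM in young replicate 3 and at 0 in the other 3 young libraries. Ltf was at 0.04 TPM in young replicate 5 and at 0 in the other 3. The dividing cell list summed to 5.30 TPM in young replicate 5, above the other young libraries. All 3 values are far below those of aged vehicle batch 1 replicate 4. The groups of aged muscle hold 3 libraries each and were not checked in this way.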

How the results depend on the processing

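In all 28 fits, 16 for age and 12 for SW033291, 0 granulocyte genes were called, and at most 4 of them had an unadjusted p under 0.05. Of 112 age differences under an alternative, 110 kept their sign, and the other 2 were those of Lcn2 without aged vehicle batch 1 replicate 4, alone or with both other high libraries (-0.08). Of 77 differences with SW033291, 68 kept their sign. The count of genes called with age (54) was 27 without a filter and 24 with the libraries of the comparison only. It was 1679 with the aged vehicle group taken from batch 2, and 297 with both batches pooled, an alternative chosen after seeing the data. Young libraries are in batch 1 only, so the counts from fits with aged libraries of batch 2 mix age with batch. Leaving out 1 library gave 19 (without young replicate 1) to 94 (without aged vehicle batch 1 replicate 4), with 26, 21 and 20 without young replicate 4, young replicate 5 and aged replicate 2. With the numbers 3 and 4 of batch 1 as a replicate block the count was 4. Deviations of libraries with the same number had correlations of 0.17 and 0.04, and nothing in the labels says that a number pairs libraries. With SW033291 the count (0) was 4 with a pseudocount of 0.1, 3 without the 3 high libraries, and 0 to 1 when 1 library was left out (1 without SW033291 replicate 4). No paired analysis was possible for SW033291, because its groups share no number. The cause of these changes was not tested. TPM keep no depth, so levels near 0 cannot be given a limit of detection.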
